A study of Mus musculus with 9 samples.

Results

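Ndnf, Ccdc13 and Zcwpw1 are 3 protein-coding genes, among 52661 gene rows, that were chosen by a clear difference between Ctr1-null cells with and without the copper chelator BCS outside the stress programmes. They were picked from these same libraries, so that difference is described here and not tested. All 3 were found in the table by Ensembl identifier and passed the filter on low counts, which left 18408 genes for testing. RNA was sequenced from mouse embryonic fibroblasts of C57BL/6 origin, immortalised with T/t antigen in all groups. The first group of 3 libraries came from Ctr1 -/- cells given BCS (bathocuproine disulfonic acid), which binds copper outside cells. The sample labels give 500 uM and 48 hours for it, and the series record 500 mM. The second group of 3 libraries came from Ctr1 -/- cells that carry no treatment tag, and the third, also of 3 libraries, from wild type cells. The protocol text on treatment reads the same for all 9 samples, so only the tag and the titles set the treated libraries apart. The titles name the null cells as floxed Ctr1. Slc31a1 is the gene of Ctr1, which carries copper into the cell with high affinity. The labels do not say whether replicates were separate cultures or whether a genotype is 1 clone, so errors measure only the spread between these libraries. The growth text, also the same for all samples, names EGF, FGF-2 and a modified N2 supplement and calls this an NS expansion medium. Whether these fibroblasts were grown in it could not be checked in the files, which bears on the FGF genes and neural progenitor markers.

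Ndnf encodes a secreted glycoprotein with fibronectin type III repeats that promotes survival and outgrowth of neurons and can dampen FGF signalling. Ccdc13 encodes a coiled-coil protein of the centriolar satellites, the granules around the centrosome, and is needed for the growth of primary cilia, the antenna-like organelles of resting cells. Zcwpw1 encodes a chromatin reader whose CW and PWWP domains bind methylated histone H3. It is best known from male germ cells, where it reads the marks laid down by the methyltransferase Prdm9 during meiotic recombination. Fibroblasts are not the cells in which Ndnf or Zcwpw1 has mostly been studied.

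On GRCm38, Ndnf (ENSMUSG00000049001.5) lies on chromosome 6 from 65671590 to 65712326 on the plus strand, Ccdc13 (ENSMUSG00000079235.10) on chromosome 9 from 121797627 to 121839461 on the minus strand, and Zcwpw1 (ENSMUSG00000037108.13) on chromosome 5 from 137787798 to 137822621 on the plus strand. The longest protein-coding transcripts measured 10101 bases in 4 exons for Ndnf, 2640 bases in 16 exons for Ccdc13 and 2222 bases in 17 exons for Zcwpw1. RefSeq promoter windows of GRCm38.p6, from 250 bases before to 50 bases after a start site, were matched for Ccdc13 and Zcwpw1. They are shown because these genes were both higher with the chelator, and because the Zcwpw1 window also holds the start of a gene on the other strand. The Ccdc13 window is chr9:121839412-121839711 on the minus strand, and its start site is the first base of the gene in GENCODE. Of the 2 Zcwpw1 windows, the one printed is chr5:137787552-137787851 on the plus strand, whose start site lies 4 bases from the GENCODE start, against 467 for the other. Capitals mark the searched motifs that were found.
Ccdc13: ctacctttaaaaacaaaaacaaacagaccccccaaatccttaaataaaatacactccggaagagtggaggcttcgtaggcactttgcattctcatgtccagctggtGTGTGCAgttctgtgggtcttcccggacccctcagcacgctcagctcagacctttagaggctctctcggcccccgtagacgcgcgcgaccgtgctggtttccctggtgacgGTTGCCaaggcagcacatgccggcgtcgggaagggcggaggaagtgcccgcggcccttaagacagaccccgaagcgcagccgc
Zcwpw1: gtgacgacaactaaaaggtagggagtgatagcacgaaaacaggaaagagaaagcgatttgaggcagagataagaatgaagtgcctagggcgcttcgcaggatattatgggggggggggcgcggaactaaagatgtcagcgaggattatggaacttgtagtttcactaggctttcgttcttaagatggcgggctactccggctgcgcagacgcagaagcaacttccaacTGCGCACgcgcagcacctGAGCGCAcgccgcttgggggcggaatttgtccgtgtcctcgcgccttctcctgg
In the Ccdc13 window the letters GTTGCC, the half-site of the X-box bound by RFX factors (regulators of cilium genes), began 33 bases before the start. The search covered both strands, and GTTGCC was found in 12.5% of 32851 mouse promoter windows of 300 bases. The whole X-box was in 0.298% of windows and not in these. From the half-site on, the Ccdc13 letters differ from the whole X-box at 1 fixed base. How many windows hold such a near match was not counted. The core of the metal response element (TGCACNC or TGCGCNC), bound by the zinc-sensing factor MTF1, occurred at 1 place in the Ccdc13 window and at 2 places in the printed Zcwpw1 window, and in 25.7% of all windows. The ATF4 element TGATGNAA (3.97% of windows) and the p53 half-site (8.36%) had no match in the Ccdc13 window or either Zcwpw1 window. GC content was 58.3% for Ccdc13 and 55.0% for the printed Zcwpw1 window, against a median of 52.7% over all windows. A match is a run of letters, not a measured binding site.

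Library totals ran from 38962036 to 57206337 counts. Slc31a1 was at 1.69 to 3.24 CPM in Ctr1-null cells with BCS and at 1.40 to 3.88 CPM in Ctr1-null cells, against 54.8 to 56.1 CPM in wild type, so no library went against its genotype label. Wild type replicate 1 stood apart: 473 and 466 genes differed by over 2-fold, on the CPM + 1 scale, between it and replicates 2 and 3, against 22 between those. Ctr1-null replicate 1 did so to a lesser degree, with 186 and 278 genes, against 78 between Ctr1-null replicates 2 and 3. Of 14 fibroblast markers, 12 reached 1 CPM in some library, among them Col1a1, Vim and Fn1. Thy1 and Lum stayed under 1 CPM in all 9 libraries, and Dcn ran from 0.0372 to 2.31 CPM. Markers of fat cells summed to 67.4 to 81.8 CPM with BCS and 58.8 to 85.5 CPM in Ctr1-null, against 24.4 to 30.3 CPM in wild type, and their part in the differences from wild type was not tested. These are mixtures of cells, and fewer cells that make a transcript cannot be told apart from less of it per cell.

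Ndnf was the 1 gene of the 3 that was lower with the chelator. It stood at 13.98, 15.05 and 13.6 CPM (counts per megacount of the library, with the library total scaled by TMM) in Ctr1-null cells with BCS, at 45.4, 40.2 and 40.8 CPM in Ctr1-null cells and at 45.5, 30.6 and 29.8 CPM in wild type, for replicates 1, 2 and 3. All BCS libraries lay under all others, while wild type replicate 1 lay with the Ctr1-null libraries and above the other two wild type libraries. The means were 14.2 ± 0.767 CPM with BCS, 42.2 ± 2.84 CPM in Ctr1-null and 35.3 ± 8.87 CPM in wild type (SD, n = 3 each). The level with BCS was thus 33.7% of that in Ctr1-null cells and 40.2% of that in wild type. The fitted log2 fold change was -1.57 ± 0.16 (SE) for BCS against Ctr1-null, the 47th lowest of 18408 genes. Against wild type it was -1.31 ± 0.15 for the BCS cells.

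Ccdc13 showed the widest relative difference of the 3 genes, from a very low start. It had 82, 83 and 84 counts in the BCS libraries, 13, 22 and 18 in Ctr1-null and 8, 4 and 9 in wild type. These are 1.49, 1.57 and 1.67 CPM with BCS, 0.258, 0.426 and 0.372 CPM in Ctr1-null and 0.166, 0.108 and 0.167 CPM in wild type. The groups formed 3 steps without overlap, and the lowest BCS library was at 3.50 times the highest Ctr1-null library. The share of all genes tested whose groups form such steps was not counted. The mean was 1.58 ± 0.0906 CPM with BCS, 0.352 ± 0.086 CPM in Ctr1-null and 0.147 ± 0.0339 CPM in wild type (SD, n = 3 each). The log2 fold change was 2.16 ± 0.24 (SE) for BCS against Ctr1-null, the 28th highest of 18408, and 3.37 ± 0.27 for BCS against wild type. The summed counts allow 219 to 282 with BCS, 39.7 to 69.3 in Ctr1-null and 13.0 to 32.1 in wild type (95% exact Poisson intervals, counting error only). A count of 0 would allow up to 0.0546 to 0.0811 CPM in these libraries, so the wild type level stood above the floor by a small margin.

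Zcwpw1 was higher with BCS at a moderate level of expression. It stood at 19.1, 20.1 and 23.7 CPM with BCS, at 10.8, 12.8 and 11.05 CPM in Ctr1-null and at 9.21, 9.51 and 9.80 CPM in wild type. Here too the 3 groups did not overlap. How many of all genes tested form such steps was not counted. Groups without overlap occurred in 24.3% of them for BCS against Ctr1-null and in 18.1% for Ctr1-null against wild type. The lowest BCS library was at 1.49 times the highest Ctr1-null library, while the lowest Ctr1-null library was at 1.10 times the highest of wild type. Means were 21.0 ± 2.40 CPM with BCS, 11.6 ± 1.11 CPM in Ctr1-null and 9.51 ± 0.291 CPM in wild type (SD, n = 3 each). The log2 fold change was 0.86 ± 0.11 (SE) for BCS against Ctr1-null, the 521st highest of 18408, and 1.14 ± 0.11 for BCS against wild type. The fitted log2 fold changes of BCS against Ctr1-null and of BCS against wild type share the BCS libraries, and the choice of the 3 genes bears on both.

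**Figure D1:**
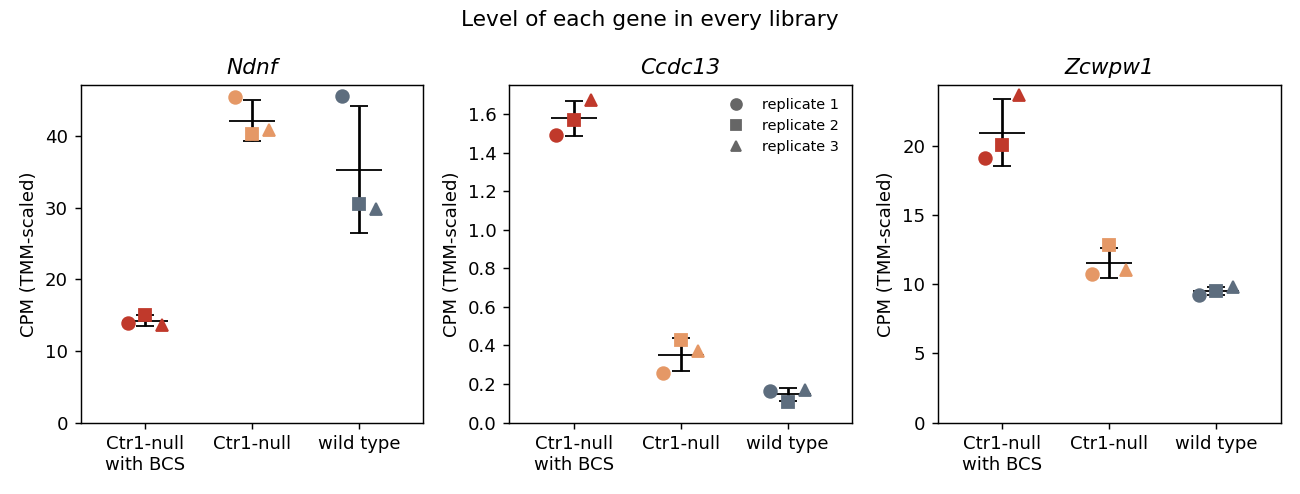
CPM of Ndnf, Ccdc13 and Zcwpw1 in each of 9 libraries, with marker shapes for replicate numbers, horizontal ticks for the mean and bars for 1 SD of 3 libraries. Ndnf is lowest with BCS (13.6 to 15.05 CPM), while Ccdc13 and Zcwpw1 are highest there and lowest in wild type.

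All 3 genes were among 10 called in BCS against Ctr1-null (edgeR, adjusted p under 0.05), which is 0.0543% of genes tested (0.038% called higher and 0.0163% lower). They were chosen on this contrast, so nothing is read from that count. Groups without overlap in this contrast, as seen for all 3 genes, occurred in 24.3% of genes tested. Per kilobase of annotated exon, the levels with BCS were 3.68 CPM for Zcwpw1, 1.40 CPM for Ndnf and 0.462 CPM for Ccdc13. In Ctr1-null cells they were 4.17 CPM per kilobase for Ndnf, 2.03 CPM for Zcwpw1 and 0.103 CPM for Ccdc13, and in wild type 3.49, 1.67 and 0.0431 CPM for the same genes. By the longest protein-coding transcript in place of all annotated exon, which for Zcwpw1 includes a retained intron of 3211 bases, Zcwpw1 had 9.44 CPM per kilobase with BCS, 5.20 in Ctr1-null and 4.28 in wild type. Ndnf had 1.41 CPM per kilobase with BCS, 4.17 in Ctr1-null and 3.50 in wild type on that measure. The order of Ndnf and Zcwpw1 without the chelator therefore depends on the length used, while with BCS Zcwpw1 had the higher level by both lengths.

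Ctr1-null against wild type compares these genes between the genotypes without the chelator. Loss of the importer cannot be told apart there from other differences between the null and wild type cells, such as their clones. None of the 3 passed the test over all genes, in which 2 of 18408 genes (0.0109%) were called. The Ctr1-null libraries are shared with the contrast on which the genes were chosen. For Ccdc13 the log2 difference was 1.22 ± 0.30 (SE, edgeR quasi-likelihood adjusted p = 0.118), with 3 of 3 null libraries above all wild type libraries. Zcwpw1 had 0.28 ± 0.11 (edgeR adjusted p = 0.248), also with 3 of 3 above. Groups without overlap occurred in 18.1% of genes in this contrast. Ndnf had 0.26 ± 0.15 (edgeR adjusted p = 0.397) with overlapping groups. Unadjusted p values were 0.00221 for Ccdc13, 0.0328 for Zcwpw1 and 0.123 for Ndnf in edgeR's test across all genes, and DESeq2 also called none of the 3 (adjusted p = 0.0847, 0.173 and 0.385 in the same order). The 95% intervals of the log2 fold change were 0.64 to 1.80 for Ccdc13, 0.06 to 0.50 for Zcwpw1 and -0.04 to 0.55 for Ndnf. They rest on a normal approximation and are narrower than the quasi-likelihood test would give. Without wild type replicate 1, Ndnf had 0.48 ± 0.09 (edgeR adjusted p = 0.00746) and Ccdc13 1.30 ± 0.35 (edgeR adjusted p = 0.0362), while Zcwpw1 had 0.26 ± 0.12 (edgeR adjusted p = 0.177). In that fit 17.3% of all genes were called.

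The authors' scaled table divides each count by a factor for the gene and library, and how the factors were made is not stated. Relative to the median factor of the same library, the factor of Ndnf was 0.861, 1.16 and 1.20 in the BCS libraries, 1.06, 1.12 and 0.989 in Ctr1-null and 1.01, 0.828 and 0.852 in wild type. Within wild type, the Ndnf factor was therefore lower in replicates 2 and 3, which had fewer Ndnf counts than replicate 1. In the scaled values Ndnf averaged 664 ± 126 with BCS, 1976 ± 194 in Ctr1-null and 1941 ± 253 in wild type (SD, n = 3 each). With these factors in the edgeR fit, its log2 fold change for Ctr1-null against wild type was 0.02 ± 0.15 (adjusted p = 0.944), and that for BCS against Ctr1-null was -1.57 ± 0.15. Of the 3 genes Ccdc13 had the widest spread of factors, 2.17-fold from the lowest to the highest library, in a gene with 4 to 22 counts in each library without BCS. Its scaled values averaged 72.3 ± 12.1 with BCS, 17.2 ± 0.995 in Ctr1-null and 7.76 ± 1.08 in wild type. For Zcwpw1 the factors spanned 1.16-fold, and the scaled means were 1020 ± 152 with BCS, 561 ± 70.0 in Ctr1-null and 489 ± 21.9 in wild type.

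The genes next to Ccdc13 and Zcwpw1 were not called by edgeR in BCS against Ctr1-null, where it called 0.0543% of all genes. Of 12 tested neighbours, taken as up to 3 on each side within 500 kb, 0 were called by edgeR over all genes. At an unadjusted p under 0.05, as 14.7% of all genes were, stood Zfp651, E530011L22Rik and Tsc22d4, and DESeq2 called Tsc22d4 (1 of 9 to which it gave an adjusted p). The closest neighbour was Mepce, which caps the small nuclear RNA 7SK and starts 143 bases from Zcwpw1 on the opposite strand, at 137787655, inside the printed Zcwpw1 window. Mepce stood at 58.0, 60.2 and 53.1 CPM with BCS, at 59.5, 51.9 and 53.5 CPM in Ctr1-null and at 54.4, 53.5 and 53.4 CPM in wild type. The groups overlapped, and the log2 fold change of Mepce for BCS against Ctr1-null was 0.05 ± 0.08 (SE, edgeR adjusted p = 0.786). Tsc22d4, which lies beyond Mepce and 19348 bases from Zcwpw1, had 0.33 ± 0.08 (edgeR adjusted p = 0.131; DESeq2 0.32, adjusted p = 0.00859).

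Around Ccdc13, Higd1a, a mitochondrial protein induced by low oxygen, lies 9102 bases beyond the Ccdc13 start and had a log2 fold change of 0.01 ± 0.12 for BCS against Ctr1-null (edgeR adjusted p = 0.979). Nearer to that start, at 4361 bases, Gm47111 had -0.83 ± 0.45 (edgeR adjusted p = 0.427). Its counts were 10, 9 and 8 with BCS and 6, 20 and 20 in Ctr1-null. On the other side Zfp651, a zinc finger gene, had 0.32 ± 0.11 (edgeR adjusted p = 0.234), with 40.9, 41.3 and 41.3 CPM with BCS and 31.1, 33.4 and 34.7 CPM in Ctr1-null. E530011L22Rik, on the same side as Zfp651, had 0.65 ± 0.21 (edgeR adjusted p = 0.217). The library kit as named in the labels does not mark strand, so reads of overlapping genes on opposite strands cannot be told apart. Gm17163, antisense to Ccdc13 with 203 shared exon bases, had 14, 5 and 5 counts with BCS and 0, 1 and 2 counts in Ctr1-null, against 82 to 84 and 13 to 22 for Ccdc13. Pilra overlaps the end of Zcwpw1 on the opposite strand by 468 exon bases and had 2 to 3 counts with BCS and 3 to 11 in Ctr1-null. Neither overlapping gene passed the filter on low counts.

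**Figure D2:**
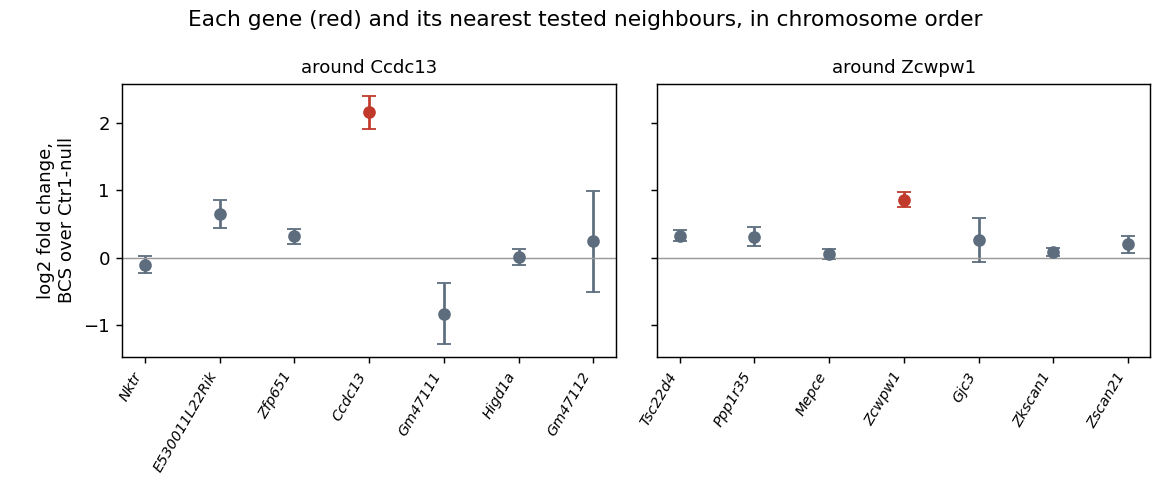
Fitted log2 fold change of BCS over Ctr1-null, with bars of 1 SE, for Ccdc13 and Zcwpw1 (red) and their tested neighbours (grey) in chromosome order; the spacing is not to scale. Mepce, beside Zcwpw1, sits at 0.05. On the start side of Ccdc13, Gm47111 sits at -0.83 and Higd1a, beyond it, at 0.01, and on the other side E530011L22Rik sits at 0.65.

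Genes whose levels ran most like those of the 3 genes were ranked by Pearson's r of log2(CPM + 1) over the 9 libraries, among 11793 genes averaging at least 1 CPM. The libraries form 3 groups, so r mostly reflects the group means and carries no test. Mki67, a marker of dividing cells, came first for Ndnf (r = 0.977), with 334, 329 and 325 CPM with BCS, 479, 456 and 472 CPM in Ctr1-null and 486, 449 and 461 CPM in wild type. Like Ndnf, Mki67 had wild type replicate 1 above replicates 2 and 3, but its relative difference with BCS was smaller (log2 fold change -0.51 ± 0.07, against -1.57 for Ndnf). Next for Ndnf were Tead1 (r = 0.972), a transcription factor of the Hippo pathway, F2r (0.970), the thrombin receptor, Sin3a (0.965), a corepressor scaffold, and Prr5 (0.964), a component of the kinase complex mTORC2.

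For Ccdc13 the first was Zfp385a (r = 0.991), a zinc finger gene known as a p53 partner, with 48.4, 50.7 and 51.1 CPM with BCS and 32.6, 36.3 and 37.1 CPM in Ctr1-null. It was followed by Rtn4ip1 (0.986), a mitochondrial reductase, Bbs1 (0.985), Fam196a (0.983) and Acadvl (0.982), an enzyme of fatty acid oxidation. Bbs1, a subunit of the BBSome coat that carries membrane proteins into cilia, was also first for Zcwpw1 (r = 0.993). It stood at 20.8, 20.6 and 22.5 CPM with BCS, at 16.2, 16.99 and 16.96 CPM in Ctr1-null and at 14.8, 15.3 and 15.4 CPM in wild type. The 3 groups of Bbs1 did not overlap, in the same order as those of Ccdc13 and Zcwpw1. Bbs1 was named for its likeness to these genes in the same libraries, so nothing is read from the shared order. Then came Snai2 (0.985), a transcription factor of mesenchymal cells, Dbp (0.983), an output factor of the circadian clock, Gpr19 (0.981) and Esrra (0.979), a nuclear receptor of mitochondrial genes. Dbp had the largest relative difference among those named for Zcwpw1, with 12.9, 13.0 and 20.3 CPM with BCS and 4.46, 6.59 and 5.37 CPM in Ctr1-null.

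**Figure D3:**
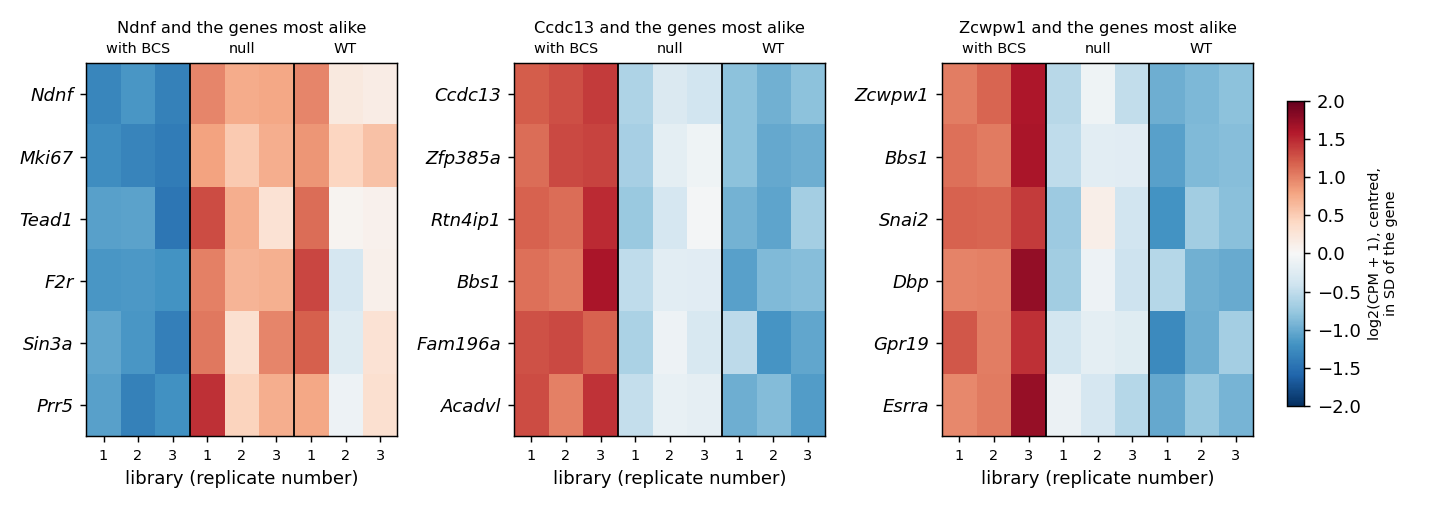
Each row is a gene and each column a library; colour gives log2(CPM + 1) centred on the gene's mean and divided by its SD over the 9 libraries. Ndnf and its 5 most alike genes are low in the BCS libraries, and Ccdc13, Zcwpw1 and theirs are high there.

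Among listed genes that share a role with Ndnf, edgeR called 0 with the chelator, while DESeq2 called some. Because edgeR called only 0.0543% of all genes, 0 calls in this or a later list says nothing about the role. Of 29 tested neurotrophic and neurite growth factors other than Ndnf, 0 were called in BCS against Ctr1-null by edgeR, 5 had an unadjusted p under 0.05 and DESeq2 called 3. Over all genes 0.0543% were called by edgeR and 14.7% had an unadjusted p under 0.05, and DESeq2 called 5.04% of 14109 genes to which it gave an adjusted p. For this and the later lists, the number of genes given an adjusted p by DESeq2 is not stated. The list counts and the 5.04% therefore rest on unlike totals. The median log2 fold change of the neurotrophic list was 0.04, against 0.00 over all genes. Of 35 tested FGF ligands, receptors and modulators, edgeR called 0, 7 had an unadjusted p under 0.05 and DESeq2 called 4, beside the same shares over all genes, with a median of -0.09. The smallest p of that list belonged to Gpc1, a cell-surface heparan sulfate proteoglycan that binds FGF ligands. Gpc1 stood at 139, 121 and 109 CPM with BCS and at 266, 185 and 240 CPM in Ctr1-null, which fitted as -0.90 ± 0.16 on the log2 scale (SE, edgeR adjusted p = 0.084). Vegfa, the angiogenic factor, had the smallest p among the neurotrophic genes, with 0.67 ± 0.17 (edgeR adjusted p = 0.144). Against wild type, edgeR called 3 neurotrophic genes higher and 5 lower in BCS cells, and 2 FGF genes higher and 3 lower. Over all genes 15.8% were called in that contrast, 8.56% higher and 7.28% lower. Gdnf, a survival factor for neurons, was among the lower ones (-1.37 ± 0.30, edgeR adjusted p = 0.019), and so was Gpc1 (-0.75 ± 0.16, edgeR adjusted p = 0.018). That contrast holds the genotype as well as the chelator. For Ctr1-null against wild type Gdnf had -1.14 ± 0.30 (edgeR adjusted p = 0.133) and Gpc1 0.15 ± 0.16 (edgeR adjusted p = 0.638). For BCS against Ctr1-null Gdnf had -0.23 ± 0.30 (edgeR adjusted p = 0.762). Without 1 library the calls in BCS against wild type ran from 0 to 16 for the neurotrophic list (0 without wild type replicate 2 or 3, 1 without BCS replicate 1 or 3, 3 without BCS replicate 2, 16 without wild type replicate 1). For the FGF list they ran from 0 (without BCS replicate 3 or wild type replicate 3) to 17 (without wild type replicate 1), with 1 without wild type replicate 2, 2 without BCS replicate 1 and 9 without Ctr1-null replicate 1. Over all genes the calls in that contrast ran from 568 (without wild type replicate 3) to 5840 (without wild type replicate 1), against 2916 with all libraries.

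The summed markers of neurons overlapped between the groups, at 57.6 to 72.1 CPM with BCS, 56.1 to 62.3 CPM in Ctr1-null and 57.03 to 61.98 CPM in wild type. Of 13 neuron markers, 10 stayed under 1 CPM in all libraries, among them Rbfox3 and Snap25. The summed markers of neural progenitors and glia were at 128 to 152 CPM with BCS, 180 to 208 CPM in Ctr1-null and 157 to 250 CPM in wild type, so that the summed level of the BCS libraries lay under the others, as for Ndnf. Most of that sum was Nes, an intermediate filament of progenitors, at 115 CPM with BCS, 161 CPM in Ctr1-null and 169 CPM in wild type on average. Other members ran differently: Fabp7 averaged 1.77 CPM with BCS, 1.08 CPM in Ctr1-null and 0.247 CPM in wild type, and S100b averaged 6.26, 7.51 and 2.31 CPM in the same groups. Over the 7 markers tested, the median log2 fold change of BCS was 0.02 against Ctr1-null and 0.61 against wild type. Of these 10 markers, 5 stayed under 1 CPM and Sox10 had no counts. Their part in the Ndnf difference was not tested.

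Among relatives of Ccdc13, edgeR called 0 of 28 tested centriolar satellite genes in BCS against Ctr1-null (3 at an unadjusted p under 0.05, 1 by DESeq2, median log2 fold change -0.02), where 14.7% of all genes had such a p and DESeq2 called 5.04%. Pcm1, the scaffold of the satellites, was at 142 ± 9.13 CPM with BCS and 141 ± 12.2 CPM in Ctr1-null (SD, n = 3 each), and its log2 fold change was 0.01 ± 0.11 (edgeR adjusted p = 0.968). Nin, a microtubule-anchoring protein of the centrosome, had the smallest p of that list (-0.39 ± 0.09, edgeR adjusted p = 0.119). Of 47 tested genes of the primary cilium and intraflagellar transport, edgeR called 0 as well, with 8 at an unadjusted p under 0.05, 2 called by DESeq2 and a median of 0.12. The smallest p was that of Bbs1 (0.35 ± 0.08, edgeR adjusted p = 0.109), which was also named above for its likeness to Ccdc13 and Zcwpw1.

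Against wild type, edgeR called 16 of the 47 cilium genes higher and 2 lower in BCS cells, with a median log2 fold change of 0.20. Over all genes the shares called were 8.56% higher and 7.28% lower and the median was 0.01. The higher ones included Bbs1 (0.49 ± 0.08, edgeR adjusted p = 0.00745), the transport subunits Ift140 (0.56 ± 0.11, adjusted p = 0.0145) and Ift172 (0.57 ± 0.13, adjusted p = 0.0185), and the motor Kif17 (2.71 ± 0.56, adjusted p = 0.0156). Kif17 was a low gene, at 0.484 CPM with BCS and 0.0699 CPM in wild type on average. Rfx3, a regulator of cilium genes, was lower (-0.43 ± 0.12, edgeR adjusted p = 0.0392). This contrast holds the genotype as well as the chelator, and the list median was 0.13 for Ctr1-null against wild type. There Kif17 had 1.82 ± 0.60, Rfx3 -0.54 ± 0.12, Ift140 0.30 ± 0.11, Ift172 0.28 ± 0.12 and Bbs1 0.14 ± 0.08. For BCS against Ctr1-null Kif17 had 0.89 ± 0.45, Rfx3 0.11 ± 0.12, Ift140 0.26 ± 0.11 and Ift172 0.30 ± 0.12. Leaving out 1 library gave 1 to 21 called genes of the cilium list in BCS against wild type. It gave 1 without BCS replicate 1, BCS replicate 3 or wild type replicate 2, 3 without wild type replicate 3, 10 without BCS replicate 2 and 21 without wild type replicate 1. The replicate block gave 9. Calls over all genes moved in the same fits, from 2916 with all libraries. They were 796, 1959 and 640 without BCS replicates 1, 2 and 3. Without wild type replicates 1, 2 and 3 they were 5840, 645 and 568, and the replicate block gave 1543. Markers of multiciliated cells summed to 9.22 to 11.5 CPM with BCS, 8.17 to 10.1 CPM in Ctr1-null and 6.36 to 7.34 CPM in wild type. Of 13 such markers 10 stayed under 1 CPM in every library, with Foxj1, their master regulator, at 0.136 to 0.248 CPM and Tekt1 without counts. Their part in the cilium and Ccdc13 differences was not tested.

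Among relatives of Zcwpw1, 24 of 45 matched genes of meiotic recombination and synapsis were tested, and 27 of the 45 stayed under 1 CPM in all libraries. In BCS against Ctr1-null edgeR called 0 of the 24, with 6 at an unadjusted p under 0.05, 0 called by DESeq2 and a median log2 fold change of 0.10, where 14.7% of all genes had such a p and DESeq2 called 5.04%. Prdm9, whose histone marks Zcwpw1 reads in germ cells, was measured in these fibroblasts. It averaged 9.82 ± 0.796 CPM with BCS, 7.16 ± 0.858 CPM in Ctr1-null and 6.67 ± 1.33 CPM in wild type (SD, n = 3 each). The BCS libraries (9.05 to 10.6 CPM) lay above all Ctr1-null libraries (6.34 to 8.06 CPM), with a fitted log2 difference of 0.46 ± 0.16 (SE, edgeR adjusted p = 0.243), and against wild type Prdm9 rose by 0.56 ± 0.16 (edgeR adjusted p = 0.0434). Spo11, which cuts DNA to start recombination, had 5 counts over all 9 libraries, and Dmc1, the meiotic strand-exchange protein, had 13. Against wild type 4 of the 24 genes were called higher in BCS cells and 1 lower, where 8.56% of all genes were called higher and 7.28% lower. Among the higher ones were Tex15 (1.45 ± 0.23, edgeR adjusted p = 0.00747), a germ cell gene of transposon silencing, and Mei4 (1.43 ± 0.33, adjusted p = 0.021), a partner in DNA break formation. This contrast holds the genotype as well as the chelator. For Ctr1-null against wild type Tex15 had 0.91 ± 0.23 and Mei4 0.74 ± 0.33. For BCS against Ctr1-null they had 0.54 ± 0.22 and 0.69 ± 0.31. Calls in BCS against wild type in that list ran from 1 (without BCS replicate 1 or 3, or wild type replicate 2 or 3) to 7, and the replicate block gave 1. Over all genes the calls ran from 568 to 5840 without single libraries, against 2916 with all, and the replicate block gave 1543.

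Of 25 tested genes with a CW or a PWWP domain, edgeR called 0 in BCS against Ctr1-null (2 at an unadjusted p under 0.05, 0 by DESeq2, median log2 fold change -0.02). Over all genes 14.7% had such a p and DESeq2 called 5.04%. These genes share a domain with Zcwpw1, and not all are readers of histone marks. Zcwpw2, the closest relative by name and domains, was at 0.299 CPM with BCS, 0.251 CPM in Ctr1-null and 0.192 CPM in wild type on average. Its log2 fold change for BCS against Ctr1-null was 0.24 ± 0.37 (edgeR adjusted p = 0.804). Against wild type edgeR called 1 of the 25 higher and 6 lower in BCS cells, with a median of -0.12, beside 8.56% of all genes called higher and 7.28% lower. For Ctr1-null against wild type the median was -0.08. In BCS against wild type, leaving out 1 library gave 0 (BCS replicate 3 or wild type replicate 3) to 13 called genes (wild type replicate 1). Over all genes the same fits called 640 (BCS replicate 3), 568 (wild type replicate 3) and 5840 (wild type replicate 1), against 2916 with all libraries. Germ cell markers summed to 1.53 to 1.65 CPM with BCS, 1.25 to 1.61 CPM in Ctr1-null and 0.985 to 1.23 CPM in wild type. All 10 stayed under 1 CPM in every library and 3 had no counts, beside 9.21 to 23.7 CPM for Zcwpw1. In all 6 lists the gene with the smallest p in BCS against Ctr1-null had an adjusted p of 0.084 to 0.252 (edgeR).

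**Figure D4:**
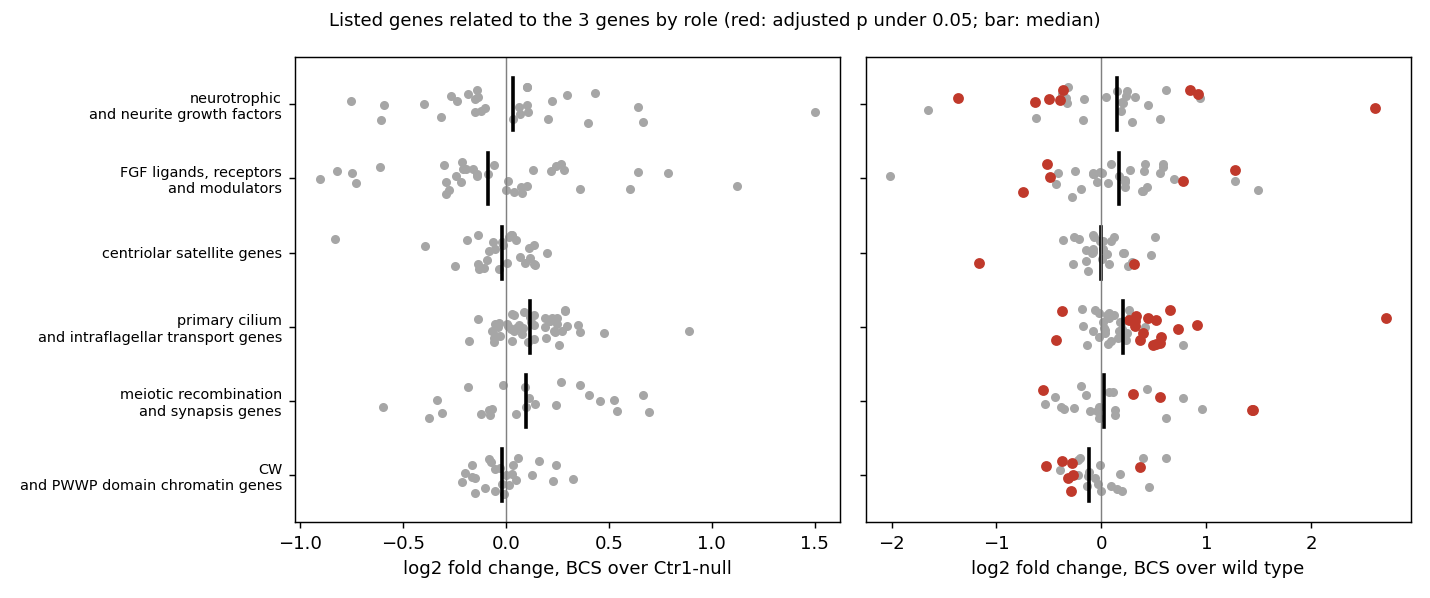
Log2 fold change of BCS over Ctr1-null (left) and over wild type (right) for the tested genes of 6 lists related by role to the 3 genes; each point is a gene, red where the adjusted p was under 0.05, and the bar is the list median. No point is red on the left, and on the right 16 cilium genes are red to the right of 0 and 2 to the left; the 2 panels share the BCS libraries.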

How the data were processed

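The authors' deposited table holds estimated counts per gene for 9 libraries, rounded to whole numbers and not normalised. A second deposited table holds scaled signal values: the ratio of count to signal differs by gene and library, and how the authors set it is not stated. GRCm38 is the build in the submitters' processing notes, which list the tools Salmon, STAR, DESeq2 and FastQC; versions and roles are not given in the sources used here. Genes were named by Ensembl identifier from GENCODE M21 (52566 of 52661 rows matched).

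Genes passing filterByExpr (minimum count 10, minimum total 15) were scaled by TMM and fitted in edgeR 4.0.16 (R 4.3.3) with all 9 libraries in 3 groups. The quasi-likelihood test was 2-sided with Benjamini-Hochberg adjustment over 18408 genes and a threshold of 0.05. SEs are the log2 fold change over the square root of F. The fit was tested on simulated data. The members, lists and markers were chosen with earlier results of these data known. The lists leave out the 3 genes. Named beyond them were Slc31a1, the nearest tested neighbours of Ccdc13 and Zcwpw1 (those of Ndnf are not reported here), the 5 genes most alike in level and, from lists, genes with the smallest p. Other list genes and markers were named after their values were seen. Alternatives are under the closing section. DESeq2 was version 1.42.0, and figures used matplotlib 3.10.9.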

Additional observations from a re-analysis of the deposited data

How the results depend on the processing

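The log2 fold changes of Ndnf, Ccdc13 and Zcwpw1 kept their sign in all 3 comparisons under every alternative run. For BCS against Ctr1-null they ran from -1.62 to -1.51, 1.98 to 2.32 and 0.76 to 0.94 when each library was left out, and for BCS against wild type from -1.42 to -1.10, 3.22 to 3.47 and 1.04 to 1.20. For Ctr1-null against wild type they ran from 0.15 to 0.48, 1.06 to 1.40 and 0.20 to 0.33. With the authors' factors as offsets Ndnf had 0.02 ± 0.15 (SE) in that comparison, so its direction there is not settled. Calls there were gained without wild type replicate 1 by Ndnf (0.48) and Ccdc13 (1.30), and in no other alternative. The number of genes called changed far more. In BCS against Ctr1-null it was 10, against 114 with no filter on low counts, 711 with DESeq2, 2 with the replicate block and 0 to 183 without single libraries (183 without wild type replicate 1; 0 without BCS replicate 1 or 3 or Ctr1-null replicate 2 or 3). In Ctr1-null against wild type it was 2, against 4 with size factors of DESeq2 in edgeR, 265 with no filter, 1039 with DESeq2, 4 with the authors' factors as offsets, 1 with only the 2 groups compared, 1 with the replicate block and 1 to 3254 without single libraries. In BCS against wild type it was 2916, against 1543 with the replicate block and 568 to 5840 without single libraries. The cause was not tested. Same-numbered libraries did not deviate together (4 of 9 pairs had a correlation over 0.1, from -0.53 to 0.47, and 5 of 18 comparisons were best with the own number), so the replicate number was not taken as pairing. The counts of called list genes in the comparisons with wild type were added as alternatives after the data were seen. Depth limits Ccdc13 most, with 4 to 22 counts in each library without BCS.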
